A study of Mus musculus with 9 samples.

Results

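Genes of Wnt signalling were followed in mouse skin by sequencing of polyadenylated RNA. Members were taken by gene symbol from the deposited count table, which lists 54456 genes. They comprise 19 Wnt ligands, 10 Frizzled receptors with the co-receptors Lrp5 and Lrp6, 4 R-spondins, 4 Dkk and 4 Sfrp genes with Wif1 as secreted antagonists, and Axin2, Ctnnb1 and Porcn, 47 genes in all. The study title speaks of immune-mediated alopecia, and the labels describe the sampled skin as AA-like lesions. Its 9 libraries form 3 groups of 3: untreated lesions, lesions given microneedles with no load (empty needles), and lesions given microneedles that held IL-2 with CCL22 (loaded needles). Microneedles deliver their contents through the skin surface; IL-2 supports T cells, regulatory T cells included, and CCL22 attracts cells that carry the receptor CCR4. The sources used here do not give strain, genotype, age, the way lesions arose or the time of sampling. They also do not say whether the 3 libraries of a group are from different mice; p-values therefore cover the spread of these libraries only, which may be technical.

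Wnt ligands are secreted proteins that must be lipid-modified by the enzyme Porcn before they can leave the cell and bind receptors. A ligand that joins a Frizzled receptor with Lrp5 or Lrp6 protects beta-catenin, the product of Ctnnb1, from destruction, and beta-catenin then acts with LEF and TCF factors on target genes such as Axin2. R-spondins strengthen the response by sparing Frizzled receptors from removal, Dkk1 and its relatives act at the co-receptors, and Sfrp proteins and Wif1 bind the ligands. Some ligands, Wnt5a and Wnt11 among them, are known mainly for routes that do not use beta-catenin. In skin the pathway is required for hair follicle formation and for the growth phase of the hair cycle.

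Total counts ran from 85962714 to 96740589 per library. Levels are given as CPM, the count of a gene relative to the effective size of its library. Enough counts for a test were present for 45 of the 47 members. Wnt1, with 1 to 7 counts per library, and Dkk1, with 2 to 7, did not pass the filter. Among the 45, 42 were above the filter's minimum in every library; Wnt8a was so in 8 libraries and Wnt8b and Dkk4 in 5 each, where 1 group alone was wholly above it. Mitochondrially encoded transcripts held 4.56% to 4.72% of counts in untreated skin, 3.31% to 3.42% under empty and 3.78% to 3.90% under loaded needles, and the part of this difference in the results was not tested. In bulk skin, fewer cells of a type and less RNA per cell cannot be told apart.

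Under loaded needles more members were higher than lower against both other groups, and all 4 R-spondins were called higher in both comparisons, although the call of Rspo3 against untreated skin was lost in 5 of 18 alternative settings (log2 fold change 0.17, edgeR adjusted p = 0.258 without untreated library 1). Against untreated skin edgeR called 27 of 45 members at an adjusted p under 0.05, or 60.0%, where 42.3% of all 26081 tested genes were called. Of these members 23 rose and 4 fell, and over all tested genes 19.0% rose and 23.3% fell. The median log2 fold change was 0.14 over members and -0.01 over all tested genes. Between loaded and empty needles 33 members were called, or 73.3%, against 41.4% of all genes. Here 24 were higher and 9 lower under loaded needles (22.9% and 18.5% over all genes), with medians of 0.13 and 0.02. Empty needles against untreated skin gave 25 calls, or 55.6%, near the 48.3% of all genes. There 12 members rose and 13 fell (20.2% and 28.1% over all genes), with medians of -0.04 and -0.02. Scaling by library size alone, which moved the all-gene median log2 fold change by 0.10, turned this last split to 17 higher and 10 lower, and upper-quartile scaling to 14 and 11. Any pair of these comparisons shares a group. The calls over all genes depended on the filter. With a stricter one (at least 1 CPM in 3 libraries), 5190 of 17141 genes rose and 5505 fell against untreated skin under loaded needles. Of the members, 23 rose and 4 fell. Between the needles 4911 genes were higher and 5196 lower under loaded ones, with 21 and 9 members. Empty needles against untreated skin gave 5906 genes higher and 5951 lower, with 11 members each way. A larger share of all genes was called with the stricter filter in each comparison. Shares of all genes set beside role groups and pathway genes below are those over the 26081 genes. The part of expression level in these shares was not tested. The 47 members held 0.246% to 0.252% of counts under loaded needles, 0.213% to 0.219% in untreated skin and 0.211% to 0.214% under empty needles. Groups without overlap were common over all 26081 tested genes. Under loaded needles 6411 lay wholly above and 7332 wholly below untreated skin. Against empty needles these were 7341 and 5921, and for empty needles against untreated skin 6131 and 8107. Of the 45 tested members they were 25 and 6, 24 and 10, and 15 and 17 in the same order.

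**Figure D1:**
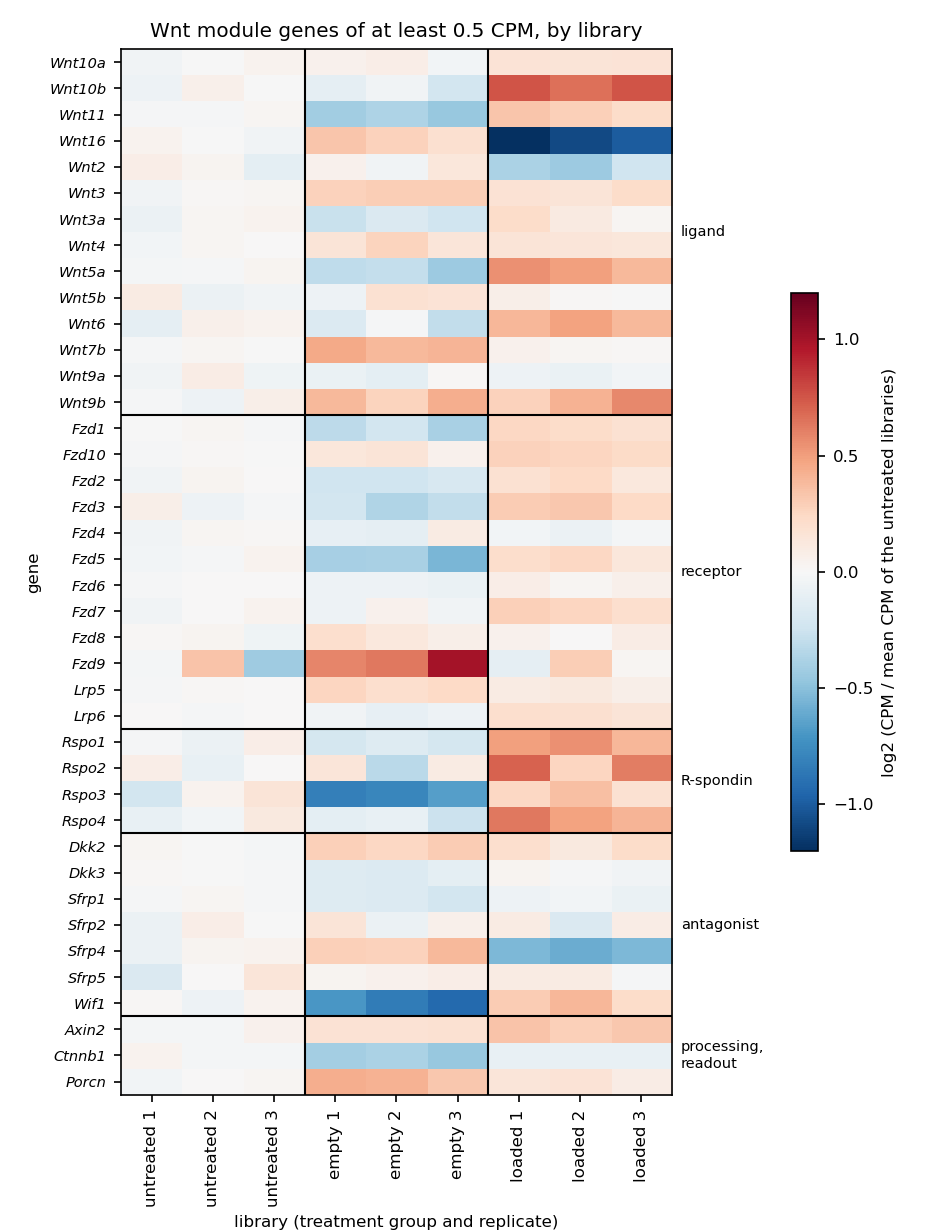
Rows are the members with a mean of at least 0.5 CPM, columns are the 9 libraries, and the colour is log2 of the CPM over the mean of the untreated libraries. Wnt10b and the R-spondins are above 0 in all 3 loaded columns, Wnt16 and Sfrp4 are below 0 there, and Wif1, Rspo3 and Fzd5 are below 0 in all 3 empty columns.

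Among the ligands, Wnt10b and Wnt5a rose most and Wnt16 fell most under loaded needles against untreated skin. Of 18 tested ligands, 7 rose and 2 fell against untreated skin, 7 were higher and 5 lower than under empty needles, and 5 rose and 3 fell between untreated skin and empty needles. Called ligands were 9 of 18 in the first comparison, where 42.3% of all genes were called, 66.7% against 41.4% in the next and 44.4% against 48.3% in the last. Per kilobase of gene span, introns included, the mean level of Wnt4 was the highest of the ligands at 5.85 CPM per kb, then Wnt5a at 2.78 and Wnt10a at 2.06. Without division by the span the order was Wnt4 at 130.2 CPM, Wnt3 at 78.5 and Wnt5a at 63.2, with Wnt10a at 26.1.

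Wnt10b, a ligand of the beta-catenin route found in hair follicles, lies on chromosome 15 from 98668593 to 98676031 in mm39. Its level was 10.8, 11.7 and 11.2 CPM in untreated skin, 10.4, 10.9 and 9.66 under empty needles and 18.9, 17.8 and 18.9 under loaded needles. Every library under loaded needles was above all others, while untreated and empty-needle libraries overlapped. Loaded needles gave 1.65-fold the level of untreated skin (log2 fold change 0.73, SE 0.054, edgeR adjusted p = 9.55e-12) and 1.80-fold that of empty needles (log2 fold change 0.85, SE 0.054, edgeR adjusted p = 2.54e-13). The difference between empty needles and untreated skin was -0.12 on the log2 scale (edgeR adjusted p = 0.0788).

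Wnt6, an epithelial ligand, stood at 6.36, 7.17 and 7.04 CPM in untreated skin, 6.11, 6.78 and 5.59 under empty needles and 9.02, 9.61 and 8.98 under loaded needles. It was 1.34-fold above untreated skin and 1.49-fold above empty needles, and the libraries under loaded needles lay above all others. A neighbouring gene model on the other strand overlaps 18.3% of its span. Wnt10a, which lies beside Wnt6 and is mutated in human disorders of hair and teeth, stood at 24.2, 24.9 and 25.7 CPM in untreated skin, 25.9, 26.4 and 24.4 under empty needles and 28.0, 27.7 and 27.9 under loaded needles. Its rise against untreated skin was 1.12-fold. The call against empty needles (1.09-fold) was lost in 5 of 18 alternative settings. Among them were omission of empty library 3 (log2 fold change 0.07, edgeR adjusted p = 0.263) and upper-quartile scaling (0.07, edgeR adjusted p = 0.156).

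Wnt5a and Wnt11 were above untreated skin under loaded needles and below it under empty ones. Wnt5a (chromosome 14 from 28226707 to 28249405) stood at 58.5, 59.2 and 61.1 CPM in untreated skin, 48.4, 48.9 and 44.1 under empty needles and 87.0, 83.6 and 78.1 under loaded needles. None of its groups overlapped. Against untreated skin it rose under loaded needles (log2 fold change 0.48, SE 0.041, edgeR adjusted p = 9.59e-10) and fell under empty needles (log2 fold change -0.34, SE 0.041, edgeR adjusted p = 1.95e-07), and the loaded level was 1.76-fold the empty one. An antisense gene model overlaps 14.6% of the Wnt5a span; the strand setting of the counting is not stated, so its counts are uncertain there. Wnt11 (chromosome 7 from 98484319 to 98504402) stood at 39.3, 39.4 and 40.5 CPM in untreated skin, 29.8, 30.7 and 29.0 under empty needles and 50.1, 48.6 and 46.4 under loaded needles. Its groups were apart as well, with log2 fold changes against untreated skin of 0.28 (SE 0.037) under loaded and -0.41 (SE 0.037) under empty needles, and a loaded level 1.62-fold the empty one.

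Wnt3a, a classical beta-catenin ligand, stood at 9.83, 10.5 and 10.6 CPM in untreated skin, 8.59, 9.13 and 8.76 under empty needles and 12.0, 11.1 and 10.5 under loaded needles. It was 1.27-fold higher under loaded than under empty needles (log2 fold change 0.34, SE 0.060, edgeR adjusted p = 2.52e-05). Its fall under empty needles (-0.22, edgeR adjusted p = 0.00316) was lost with library-size scaling (-0.12, edgeR adjusted p = 0.120).

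Wnt16, a ligand expressed by keratinocytes, went the other way. It lies on chromosome 6 from 22288226 to 22298521 and stood at 8.12, 7.86 and 7.64 CPM in untreated skin, 9.92, 9.55 and 9.02 under empty needles and 3.40, 3.72 and 3.95 under loaded needles. Every library under loaded needles was below the other groups, by 2.13-fold against untreated skin (log2 fold change -1.09, SE 0.072, edgeR adjusted p = 9.72e-13) and 2.57-fold against empty needles (log2 fold change -1.36, SE 0.070, edgeR adjusted p = 4.88e-15), and empty needles lay above untreated skin (0.27, SE 0.065). Wnt2 also fell under loaded needles, at 10.1, 9.80 and 8.83 CPM in untreated skin, 9.95, 9.33 and 10.5 under empty needles and 7.37, 7.10 and 8.11 under loaded needles. The fall was 1.27-fold against untreated skin and 1.32-fold against empty needles, and untreated and empty-needle libraries overlapped.

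Wnt7b, Wnt3 and Wnt4, ligands expressed in skin epithelium, were highest on average under empty needles. Wnt7b stood at 53.2, 54.6 and 53.8 CPM in untreated skin, 73.6, 70.6 and 71.4 under empty needles and 55.7, 54.9 and 54.4 under loaded needles. Empty needles alone stood apart, 1.33-fold above untreated skin (log2 fold change 0.42, SE 0.032, edgeR adjusted p = 7.53e-12), while loaded needles differed from untreated skin by 0.03 (SE 0.032, edgeR adjusted p = 0.498). Wnt3 stood at 68.0, 70.9 and 71.4 CPM in untreated skin, 84.7, 86.3 and 86.1 under empty needles and 79.2, 77.9 and 81.7 under loaded needles. It rose against untreated skin 1.22-fold under empty and 1.14-fold under loaded needles. Its difference between the needles (-0.11) was lost without loaded library 2 and with library-size scaling (-0.09 and -0.08, edgeR adjusted p = 0.0648 and 0.0646). Wnt4 stood at 118, 122 and 121 CPM in untreated skin, 134, 145 and 133 under empty needles and 134, 133 and 132 under loaded needles. It rose against untreated skin with either device (0.14 and 0.19 for loaded and empty needles), and the difference between them was -0.05 (edgeR adjusted p = 0.292). That difference was called in 3 of 18 alternative settings, among them upper-quartile scaling (-0.10, edgeR adjusted p = 0.0204).

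The remaining ligands had few counts or no call. Wnt7a had 15 to 17 counts in untreated libraries, 31 to 35 under empty and 16 to 17 under loaded needles. Its rise under empty needles (0.82) was lost without untreated library 1 or empty library 1 (0.78 and 0.74, edgeR adjusted p = 0.0532 and 0.0579). Wnt7a was also called lower under loaded than under empty needles (-0.90, edgeR adjusted p = 0.0106), and this held in all 17 settings that tested it. Wnt8a, with 9 to 27 counts per library, was called higher under loaded than under empty needles (0.87, edgeR adjusted p = 0.0434). That call was lost without empty library 1 or 2 (0.66 and 0.76), without loaded library 1, 2 or 3 (0.94, 0.83 and 0.86), with upper-quartile scaling (0.82) and by the DESeq2 Wald test (0.87). Wnt2b, Wnt5b, Wnt8b, Wnt9a and Wnt9b were called in no comparison. Of these, Wnt2b and Wnt8b had 30 to 39 and 8 to 23 counts per library, and log2 fold changes of -0.24 (SE 0.24) and 0.44 (SE 0.44) between loaded needles and untreated skin. Wnt9b, with 43 to 74 counts, differed by 0.43 (SE 0.19, edgeR adjusted p = 0.0682) between loaded needles and untreated skin.

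**Figure D2:**
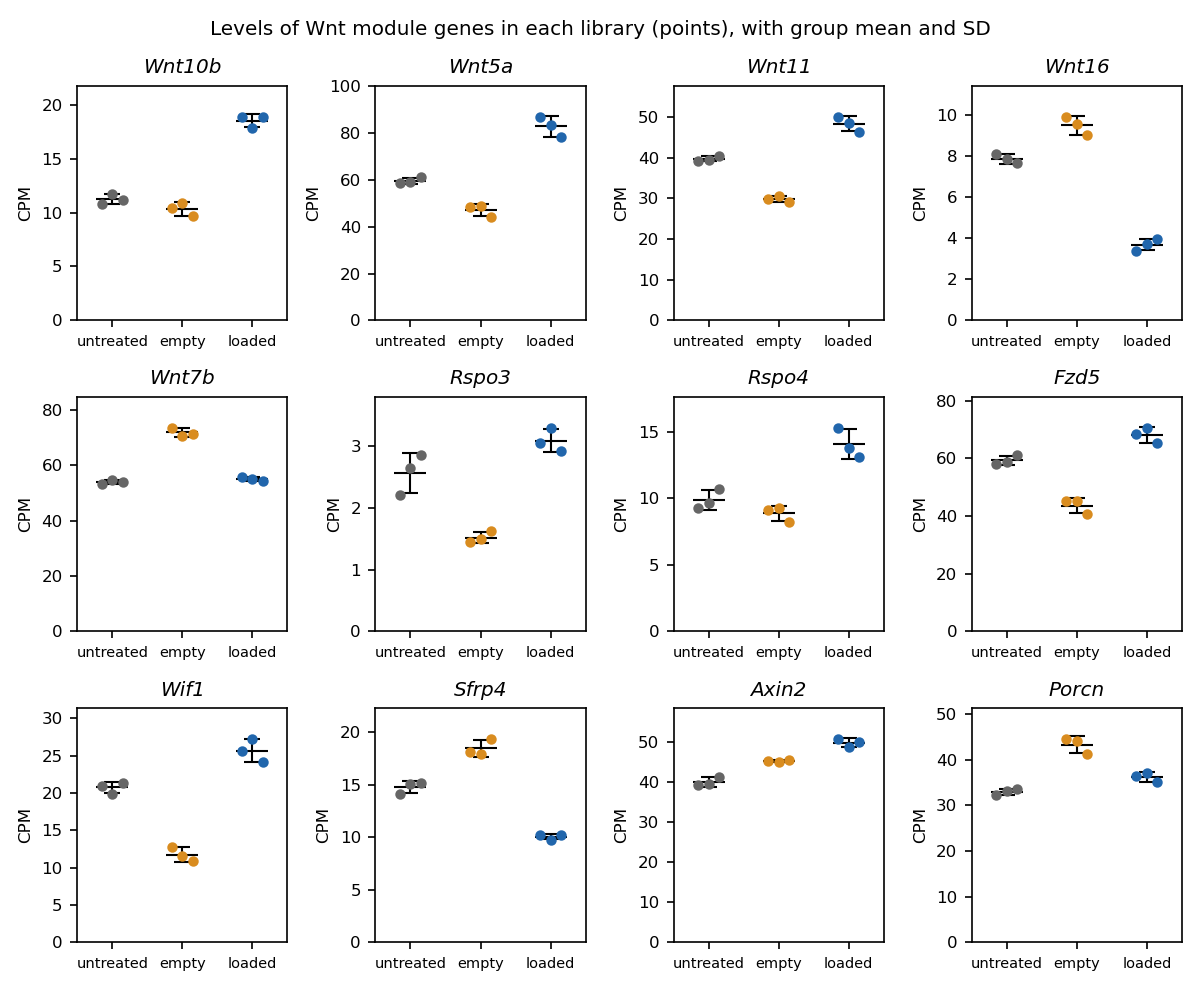
Each panel shows the CPM of 1 gene in the 9 libraries (points), with the mean and SD of each group of 3 and an axis that starts at 0. Loaded-needle points are highest for Wnt10b, Wnt5a, Wnt11, Fzd5, Rspo3, Rspo4, Wif1 and Axin2 and lowest for Wnt16 and Sfrp4, and empty-needle points are highest for Wnt7b and Porcn.

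Receptor genes rose under loaded needles by small amounts, none by more than 1.22-fold against untreated skin. Of the 12 receptor and co-receptor genes, 8 rose and 0 fell against untreated skin, 8 were higher and 2 lower under loaded than under empty needles, and 3 rose and 4 fell under empty needles. The shares called were 66.7%, 83.3% and 58.3%, beside 42.3%, 41.4% and 48.3% of all genes. In the last comparison 25.0% of receptors rose and 33.3% fell, near the 20.2% and 28.1% of all genes.

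A first set, Fzd5, Fzd1, Fzd3 and Fzd2, lay above untreated skin under loaded needles and below it under empty ones, with no overlap of groups. Frizzled proteins carry the domain that binds the ligand. Fzd5 stood at 58.0, 58.8 and 61.2 CPM in untreated skin, 45.1, 45.3 and 40.6 under empty needles and 68.6, 70.7 and 65.3 under loaded needles. Against untreated skin it rose under loaded (log2 fold change 0.20, SE 0.040, edgeR adjusted p = 1.49e-04) and fell under empty needles (log2 fold change -0.44, SE 0.040, edgeR adjusted p = 5.82e-10), and the loaded level was 1.56-fold the empty one. Another gene model on the other strand overlaps 21.0% of the Fzd5 span. Fzd1 (chromosome 5 from 4803839 to 4808035) stood at 93.1, 94.8 and 92.7 CPM in untreated skin, 75.3, 80.2 and 71.3 under empty needles and 111, 109 and 106 under loaded needles. It was 1.16-fold above untreated skin under loaded needles and 1.24-fold below it under empty ones. Fzd3, known for planar cell polarity, stood at 14.6, 13.3 and 13.7 CPM in untreated skin, 11.9, 10.8 and 11.3 under empty needles and 17.1, 17.4 and 16.4 under loaded needles, with a log2 fold change of 0.58 (SE 0.052) between loaded and empty needles. Fzd2 stood at 21.4, 22.5 and 22.1 CPM in untreated skin, 18.6, 18.7 and 19.2 under empty needles and 25.0, 25.9 and 24.0 under loaded needles, with a 1.33-fold difference between the needles.

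Fzd7 and Fzd10 were highest under loaded needles, and neither was called lower under empty ones. Fzd7 stood at 35.6, 36.6 and 37.6 CPM in untreated skin, 35.2, 38.0 and 35.6 under empty needles and 44.6, 43.9 and 42.0 under loaded needles. It was 1.19-fold above untreated skin (log2 fold change 0.25, SE 0.038, edgeR adjusted p = 4.25e-06), with untreated and empty-needle libraries overlapping. Fzd10 stood at 73.6, 75.3 and 74.4 CPM in untreated skin, 81.9, 82.9 and 77.3 under empty needles and 90.0, 88.8 and 87.1 under loaded needles. It rose 1.19-fold under loaded and 1.08-fold under empty needles, and the difference between the needles (0.14) was lost without empty library 3 (0.08, edgeR adjusted p = 0.0823).

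The co-receptors Lrp5 and Lrp6, which carry the signal to the cytoplasm, had different orders of groups. Lrp6 stood at 113, 111 and 113 CPM in untreated skin, 109, 105 and 108 under empty needles and 129, 128 and 125 under loaded needles, and loaded needles were above all other libraries, 1.13-fold against untreated skin (log2 fold change 0.18, SE 0.031, edgeR adjusted p = 2.30e-05). Lrp5 stood at 204, 208 and 207 CPM in untreated skin, 246, 237 and 243 under empty needles and 221, 224 and 217 under loaded needles, with the highest levels under empty needles, 1.17-fold those of untreated skin (log2 fold change 0.23, SE 0.031, edgeR adjusted p = 3.96e-07). The Lrp5 rise under loaded needles (0.10) was lost without loaded library 1 or 2 (0.09 and 0.09, edgeR adjusted p = 0.0518 and 0.0818).

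Fzd9, at 31 to 93 counts per library, rose under empty needles (log2 fold change 0.76, SE 0.21, edgeR adjusted p = 0.00365). It was lower under loaded than under empty needles (-0.67), a call lost without loaded library 1 (-0.58, edgeR adjusted p = 0.0523). Fzd6 was 1.09-fold higher under loaded than under empty needles, a call lost with upper-quartile scaling (0.07, edgeR adjusted p = 0.0613). Fzd4 and Fzd8 were called in no comparison, with differences of -0.04 and 0.05 (SE 0.043 and 0.067) between loaded needles and untreated skin. Under empty needles Fzd8 differed from untreated skin by 0.13 (edgeR adjusted p = 0.106), and was called higher there in 5 of 18 alternative settings.

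Promoters were searched on both strands for the letters CTTTGA, the core of the sequence that LEF and TCF factors bind. RefSeq promoters of GRCm38.p6, each 250 bases before to 50 after a start, were found by symbol for 30 of the 47 members, 34 promoters in all. The letters were in 4 of them, or 11.8%, and in 16.0% of all 32851 promoters of that length. These 4 belong to Wnt11, Fzd1, Wnt5b and Dkk1, and the promoter of Axin2 in the table has none. Wnt11 and Fzd1 are shown because, of these 4, only they were among the members with the smallest p of their role in a comparison. The sequences are the 250 bases before the start, with the match in capitals, which read TCAAAG on the strand of the gene and so CTTTGA on the other. It begins 50 bases before the Wnt11 start shown and 242 bases before that of Fzd1, and the other Wnt11 promoter in the table, at a later start, has no match. A match describes letters and not a bound site.
Wnt11, plus strand, chr7:98834862-98835111: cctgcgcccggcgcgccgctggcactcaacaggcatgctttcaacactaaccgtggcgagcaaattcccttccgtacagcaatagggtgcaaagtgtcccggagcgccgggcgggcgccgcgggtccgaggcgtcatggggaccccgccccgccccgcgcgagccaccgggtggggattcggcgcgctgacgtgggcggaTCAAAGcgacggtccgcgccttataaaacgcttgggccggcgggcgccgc
Fzd1, minus strand, chr5:4758217-4758466: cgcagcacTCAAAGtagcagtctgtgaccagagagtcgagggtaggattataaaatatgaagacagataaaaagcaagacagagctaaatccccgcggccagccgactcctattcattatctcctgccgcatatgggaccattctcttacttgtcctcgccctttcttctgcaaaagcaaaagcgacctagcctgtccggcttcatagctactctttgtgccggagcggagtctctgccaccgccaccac

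All 4 R-spondins were called higher under loaded needles against both other groups, Rspo3 less firmly against untreated skin. Of all 26081 tested genes, 19.0% were called higher against untreated skin and 22.9% against empty needles. R-spondins bind Lgr receptors and so leave more Frizzled at the cell surface. Rspo4, which is mutated in human nail loss, stood at 9.30, 9.64 and 10.7 CPM in untreated skin, 9.10, 9.26 and 8.24 under empty needles and 15.3, 13.8 and 13.1 under loaded needles. It was 1.42-fold above untreated skin (log2 fold change 0.51, SE 0.065, edgeR adjusted p = 3.18e-07) and 1.58-fold above empty needles. Rspo1 stood at 3.28, 3.15 and 3.50 CPM in untreated skin, 2.86, 2.97 and 2.86 under empty needles and 4.67, 4.85 and 4.37 under loaded needles, and was 1.40-fold above untreated skin and 1.60-fold above empty needles. For both genes every library under loaded needles was above all others. Rspo2, a dermal R-spondin tied to coat type in dogs, stood at 1.28, 1.14 and 1.22 CPM in untreated skin, 1.34, 0.972 and 1.30 under empty needles and 1.98, 1.45 and 1.86 under loaded needles. Here too the loaded libraries were above the rest (log2 fold change 0.54, SE 0.15, edgeR adjusted p = 0.00358 against untreated skin).

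Rspo3, known for its role in blood vessels and in other stem cell niches, also fell under empty needles. It stood at 2.21, 2.64 and 2.85 CPM in untreated skin, 1.45, 1.49 and 1.62 under empty needles and 3.05, 3.30 and 2.92 under loaded needles. Empty needles were 1.69-fold below untreated skin (log2 fold change -0.76, SE 0.11, edgeR adjusted p = 2.31e-06), and the loaded level was 2.03-fold the empty one. The rise of loaded needles over untreated skin (0.26, edgeR adjusted p = 0.0446) was lost without untreated library 1 or 2 (0.17 and 0.28), without loaded library 1 or 2 (0.27 and 0.21), and in DESeq2's Wald test (0.28, adjusted p = 0.0576).

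The secreted antagonists had calls in both directions. Of 8 tested, 2 rose and 1 fell between untreated skin and loaded needles, 3 were higher and 1 lower under loaded than under empty needles, and 2 rose and 4 fell under empty needles. The 3 and 4 of 8 antagonists called in the comparisons with the loaded group stood beside 42.3% and 41.4% of all genes. For empty needles against untreated skin 6 of 8, or 75.0%, were called beside 48.3%. With the stricter filter 5906 of 17141 genes rose and 5951 fell in that last comparison. Wif1, which binds Wnt ligands, had the highest log2 fold change between the needles of the 45 tested members. It lies on chromosome 10 from 120869865 to 120936555 and stood at 21.0, 19.9 and 21.4 CPM in untreated skin, 12.8, 11.6 and 10.9 under empty needles and 25.6, 27.3 and 24.2 under loaded needles, with no overlap of groups. Empty needles were 1.77-fold below untreated skin (log2 fold change -0.82, SE 0.056, edgeR adjusted p = 2.03e-12), loaded needles 1.24-fold above it (log2 fold change 0.31, SE 0.053, edgeR adjusted p = 2.83e-05), and the loaded level was 2.19-fold the empty one (log2 fold change 1.13, SE 0.055, edgeR adjusted p = 5.74e-15). Sfrp4, an antagonist that carries a Frizzled-like binding domain, had the opposite order. It lies on chromosome 13 from 19807274 to 19817164 and stood at 14.1, 15.1 and 15.2 CPM in untreated skin, 18.1, 17.9 and 19.4 under empty needles and 10.2, 9.78 and 10.2 under loaded needles, again with no overlap. Loaded needles were 1.47-fold below untreated skin (log2 fold change -0.56, SE 0.053, edgeR adjusted p = 1.08e-09) and 1.84-fold below empty needles, and empty needles were above untreated skin (log2 fold change 0.32, SE 0.050).

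Calls of the other antagonists were smaller or rested on few counts. Sfrp1 stood at 81.1, 83.5 and 81.3 CPM in untreated skin, 73.5, 73.0 and 70.4 under empty needles and 78.5, 79.9 and 77.5 under loaded needles. It fell under empty needles (log2 fold change -0.18, SE 0.031, edgeR adjusted p = 1.76e-05), and its difference between the needles (0.12) was lost without empty library 3 and with upper-quartile scaling (0.07 and 0.07, edgeR adjusted p = 0.105 and 0.0846). Dkk2, a relative of Dkk1 whose loss in mice gives hair on bare foot skin, stood at 6.99, 6.86 and 6.76 CPM in untreated skin, 8.40, 8.15 and 8.50 under empty needles and 7.90, 7.47 and 7.99 under loaded needles. It rose under empty needles (0.28, SE 0.061), and the call for loaded needles (0.18, edgeR adjusted p = 0.0192) was lost without untreated library 3 or loaded library 1 or 3 (0.17, 0.17 and 0.16).

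Dkk3, a divergent family member, stood at 15.9, 15.7 and 15.5 CPM in untreated skin, 14.1, 14.0 and 14.5 under empty needles and 16.1, 15.5 and 15.2 under loaded needles. Its fall under empty needles (-0.15, edgeR adjusted p = 0.0112) was lost in 8 of 18 alternative settings, among them without empty library 3 (-0.12) and with library-size scaling (-0.04). Its difference between the needles (0.14) was lost in 6, among them without empty library 3 or loaded library 1 (0.13 and 0.12). Dkk4, at 5 to 16 counts per library, was called lower under empty needles (-1.09, edgeR adjusted p = 0.0470). This call was lost in 12 of 17 settings that tested it. Among them were each omission of untreated library 1, 2 or 3 (-1.18, -0.99 and -1.11), empty library 1 or 3 (-1.09 and -0.84) and loaded library 2 or 3 (-1.10 and -1.10). Sfrp2 and Sfrp5 were called in no comparison, and Sfrp5 stood at 1.41, 1.60 and 1.76 CPM in untreated skin, 1.63, 1.65 and 1.68 under empty needles and 1.70, 1.70 and 1.57 under loaded needles.

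Axin2, a common readout of beta-catenin activity, rose with either device and was highest under loaded needles. It lies on chromosome 11 from 108811175 to 108841609 and stood at 39.2, 39.4 and 41.3 CPM in untreated skin, 45.2, 45.0 and 45.4 under empty needles and 50.8, 48.6 and 49.9 under loaded needles, with no overlap between any groups. Against untreated skin it rose under loaded needles (log2 fold change 0.32, SE 0.034, edgeR adjusted p = 1.46e-08) and under empty needles (log2 fold change 0.18, SE 0.034, edgeR adjusted p = 8.24e-05), and the needles differed by 0.14 (SE 0.034, edgeR adjusted p = 0.00127). An antisense gene model overlaps 8.89% of its span.

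Ctnnb1 RNA, which is not a measure of beta-catenin protein, stood at 865, 827 and 824 CPM in untreated skin, 632, 644 and 612 under empty needles and 786, 789.5 and 788 under loaded needles. It fell 1.33-fold under empty needles (log2 fold change -0.41, SE 0.034, edgeR adjusted p = 2.86e-11). The smaller call for loaded needles against untreated skin (-0.09, edgeR adjusted p = 0.0318) was lost in 9 of 18 settings. Among them were omission of untreated library 1 (-0.07) or of loaded library 1, 2 or 3 (-0.09, -0.09 and -0.09), and library-size scaling, which turned its sign (0.04). Other gene models, antisense Ulk4 among them, overlap 21.8% of the Ctnnb1 span. Porcn stood at 32.3, 33.1 and 33.5 CPM in untreated skin, 44.6, 44.1 and 41.2 under empty needles and 36.5, 37.0 and 35.0 under loaded needles. It was highest under empty needles, 1.31-fold above untreated skin (log2 fold change 0.39, SE 0.038, edgeR adjusted p = 7.76e-10), and rose 1.10-fold under loaded needles.

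**Figure D3:**
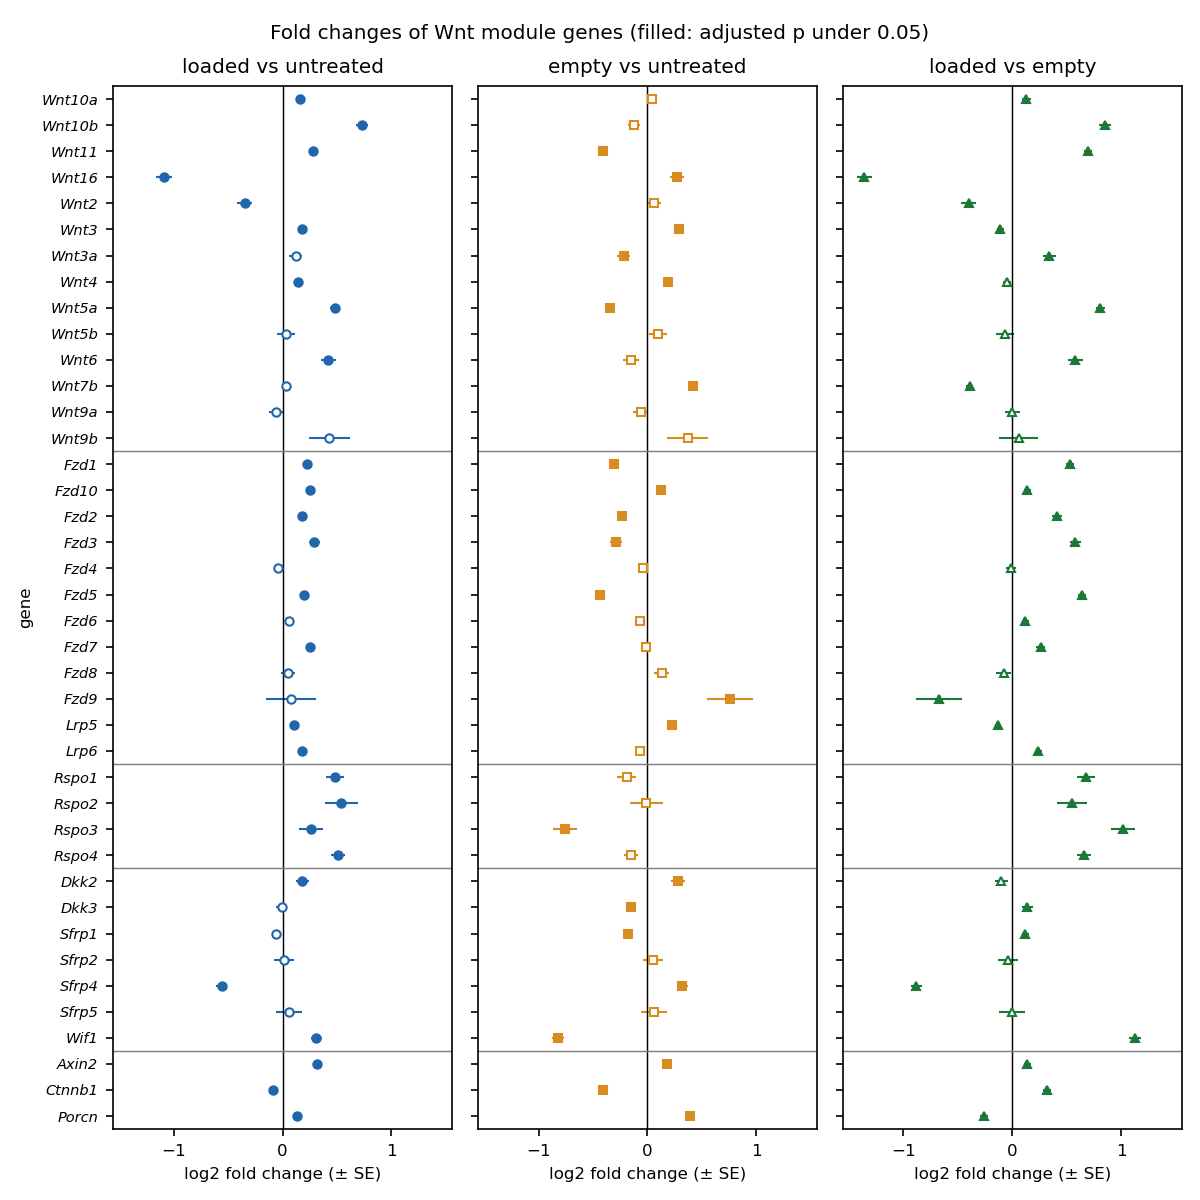
Log2 fold changes with standard errors for the members of at least 0.5 CPM, 1 panel for each of the 3 comparisons, filled where the adjusted p was under 0.05. The 4 R-spondins lie right of 0 in both panels that hold the loaded group, and Wif1 and Sfrp4 lie on opposite sides of 0 in every panel.

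A list of 60 other genes of the pathway holds receptors, transducers, feedback inhibitors and nuclear factors, of which 59 were tested and Sost was not. Against untreated skin 39 rose and 4 fell under loaded needles, with a median log2 fold change of 0.17 (72.9% called, beside 42.3% of all genes and their median of -0.01). Between the needles 29 were higher and 12 lower under loaded ones (median 0.14; 69.5% called, beside 41.4% and a median of 0.02 for all genes). Under empty needles 18 rose and 16 fell (median 0.04; 57.6% called, beside 48.3% and a median of -0.02 for all genes). That split became 23 and 12 with DESeq2 size factors, 29 and 12 with upper-quartile factors and 31 and 10 with library size alone.

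Feedback inhibitors were among the genes with the smallest p. Notum, a secreted enzyme that removes the lipid from Wnt ligands, stood at 5.61, 6.17 and 6.28 CPM in untreated skin, 6.12, 6.48 and 5.61 under empty needles and 12.4, 11.6 and 11.6 under loaded needles. It was 1.97-fold above untreated skin and 1.95-fold above empty needles, with untreated and empty-needle libraries overlapping. Nkd1, which restrains the pathway inside the cell, rose under loaded needles (log2 fold change 0.67, SE 0.054, edgeR adjusted p = 5.20e-11), and its fall under empty ones (-0.21) was lost with library-size scaling (-0.11, edgeR adjusted p = 0.109). Nkd2, its relative, stood at 94.1, 92.9 and 95.0 CPM in untreated skin, 75.9, 78.7 and 71.7 under empty needles and 129.5, 127 and 124 under loaded needles, with log2 fold changes of 0.43 (SE 0.034) under loaded and -0.32 (SE 0.034) under empty needles against untreated skin. Apcdd1, a membrane inhibitor mutated in a hereditary hair loss, rose under loaded needles (log2 fold change 0.37, SE 0.032, edgeR adjusted p = 2.48e-10).

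Nuclear partners and receptors had called differences as well. Lef1, a partner of beta-catenin on DNA, stood at 41.6, 42.5 and 44.6 CPM in untreated skin, 35.9, 37.6 and 34.8 under empty needles and 69.9, 66.9 and 64.4 under loaded needles. None of its groups overlapped, and the loaded level was 1.56-fold the untreated and 1.86-fold the empty one. Lgr4, a receptor for R-spondins, stood at 93.2, 94.2 and 92.1 CPM in untreated skin, 75.4, 75.4 and 71.2 under empty needles and 108, 107 and 108 under loaded needles, with the groups in the same order and apart. Wls, the carrier that brings Wnt ligands to the cell surface, stood at 187, 179.9 and 183 CPM in untreated skin, 142, 146 and 139.7 under empty needles and 190.1, 192 and 185 under loaded needles. It fell under empty needles (log2 fold change -0.36, SE 0.032, edgeR adjusted p = 1.47e-10), differed by 0.04 (edgeR adjusted p = 0.318) under loaded needles, and was 1.32-fold higher under loaded than under empty ones. Igfbp4, a secreted binding protein described as a Wnt inhibitor, was 1.44-fold higher under loaded than under empty needles.

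Kremen1, a Dkk receptor, the transducer Dvl3 and the beta-catenin co-factor Bcl9l rose under empty needles by 1.30-fold, 1.24-fold and 1.24-fold. Each of them also rose under loaded needles, by 1.18-fold, 1.10-fold and 1.11-fold. Ctnnbip1, an inhibitor of beta-catenin, stood at 154, 158 and 153 CPM in untreated skin, 185, 179.8 and 172 under empty needles and 125, 124 and 126 under loaded needles, with the groups apart and the loaded level 1.24-fold below the untreated one. Cthrc1, a secreted protein tied to the polarity route, fell 1.96-fold under loaded and 1.37-fold under empty needles.

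**Figure D4:**
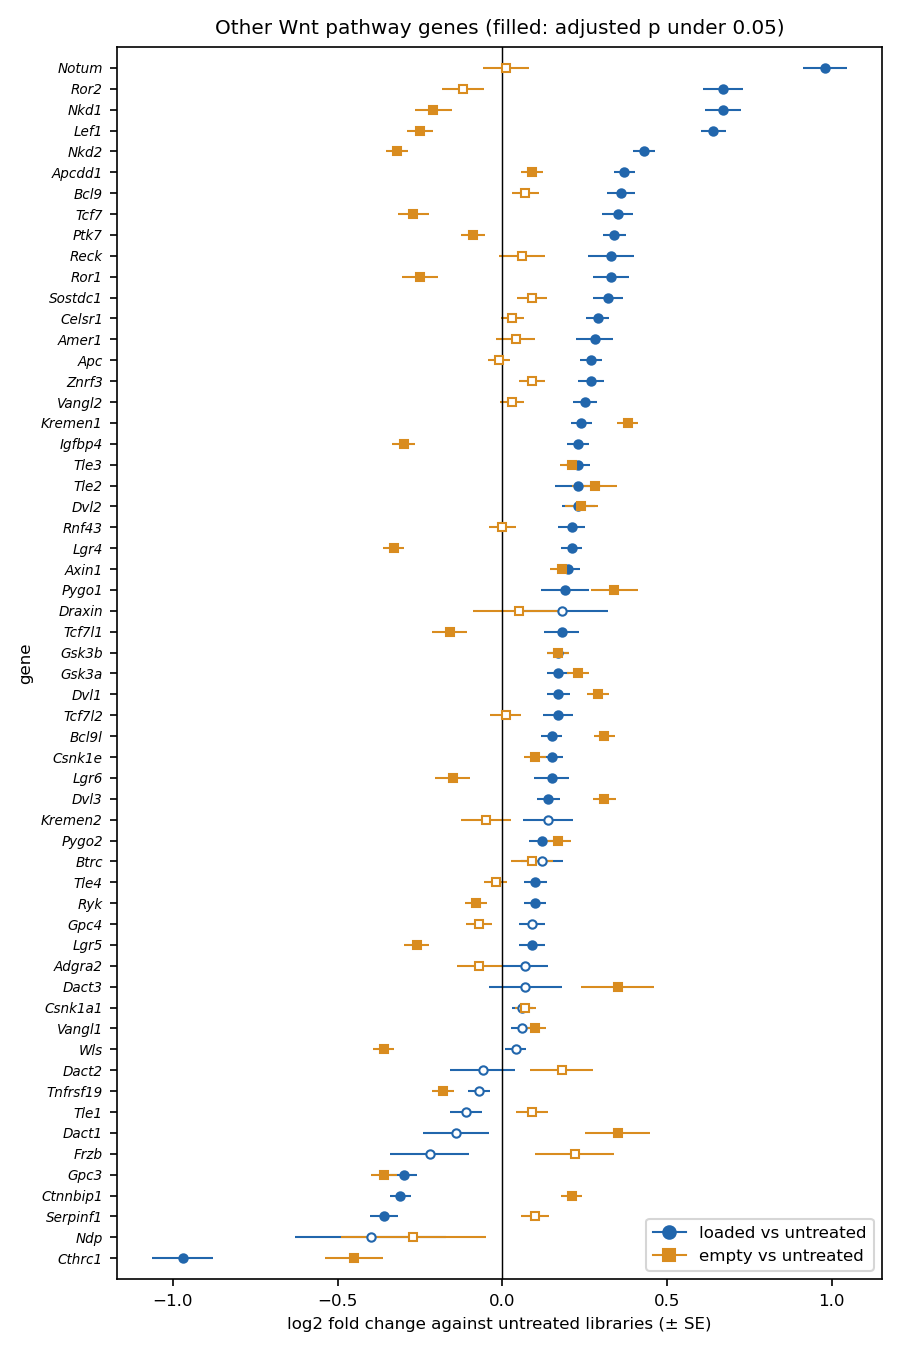
Log2 fold changes with standard errors of the further pathway genes of at least 0.5 CPM against untreated skin, for loaded and for empty needles, filled where the adjusted p was under 0.05. Under loaded needles Notum lies at 0.98 and Cthrc1 at -0.97, and Lef1, Nkd2 and Lgr4 lie right of 0 under loaded and left of 0 under empty needles.

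Markers of the cell types in skin moved with the groups. Summed levels are given in the order untreated, empty and loaded. Over all tested genes, 19.0% rose and 23.3% fell under loaded needles against untreated skin, and 20.2% and 28.1% under empty needles. Hair matrix and shaft genes reached 39008 to 40106, 25768 to 29261 and 44836 to 48064 CPM; of 22 genes, 21 rose and 0 fell under loaded needles against untreated skin, and 1 rose and 21 fell under empty needles. Dermal papilla genes, Notum among them, reached 171 to 180.2, 127 to 129 and 191 to 199.8 CPM. Of 18 papilla genes 16 were tested, 8 of which rose and 3 fell under loaded and 0 rose and 11 fell under empty needles, and Sox2 was at 0 in all libraries. Follicle stem cell and outer sheath genes, Lgr5 and Tcf7l1 of the pathway list among them, reached 3073 to 3203, 2400 to 2536 and 2648 to 2703 CPM. Of these 12 genes 4 rose and 4 fell under loaded and 1 rose and 8 fell under empty needles against untreated skin, so that under loaded needles the sum was lower while the median log2 fold change was 0.04. Interfollicular epidermal genes reached 46850 to 48260, 53729 to 55231 and 34196 to 36460 CPM, the highest under empty and the lowest under loaded needles. Of 11 tested, 1 rose and 7 fell under loaded and 6 rose and 5 fell under empty needles, so that members went both ways in the latter.

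Melanocyte genes reached 574 to 599, 303 to 336 and 592 to 649 CPM. Of 10, 5 rose and 4 fell under loaded and 0 rose and 9 fell under empty needles, with medians of 0.04 and -1.05. Adipocyte genes reached 963 to 1045, 624 to 675 and 1112 to 1159 CPM, and of 10, 7 rose and 0 fell under loaded and 2 rose and 8 fell under empty needles. Fibroblast genes reached 1745 to 1800, 1510 to 1615 and 1210 to 1240 CPM, and skeletal muscle genes 8218 to 8464, 10188 to 11907 and 7362 to 7901. Sebaceous genes reached 949 to 958, 840.0 to 854 and 928 to 956 CPM, and endothelial genes 131 to 136, 141 to 157 and 136 to 141. Macrophage genes reached 320.4 to 338, 273 to 280.1 and 209 to 227 CPM, and T cell genes 117 to 121, 93.1 to 99.9 and 87.5 to 91.4. Against untreated skin, members called higher and lower under loaded needles were 0 and 11 for fibroblast, 2 and 8 for muscle, 2 and 6 for sebaceous, 3 and 1 for endothelial, 0 and 10 for macrophage and 0 and 10 for T cell genes. Under empty needles they were 2 and 9, 9 and 1, 2 and 5, 6 and 0, 1 and 8 and 0 and 6 in that order. The share of endothelial genes called under loaded needles, 40.0%, was near the 42.3% of all tested genes. Apart from Sox2, no marker on these lists was at 0 in all libraries. The part of these differences in the values of the Wnt genes was not tested.

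**Figure D5:**
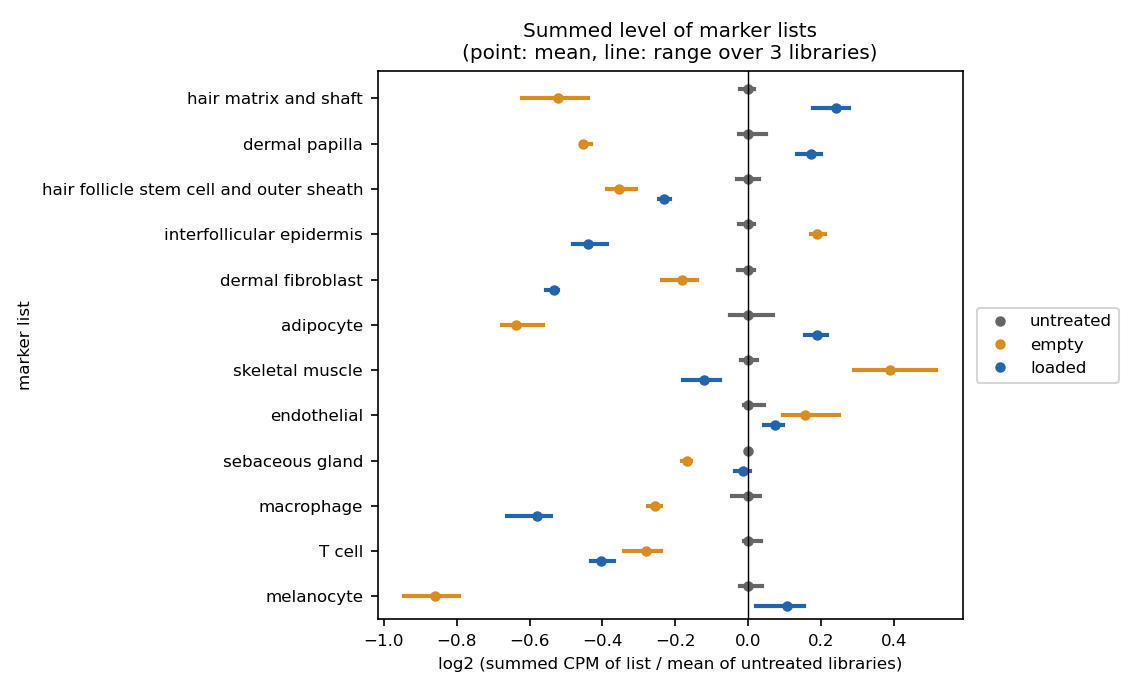
Summed CPM of each marker list as log2 of its ratio to the mean of the untreated libraries, with points for group means and lines for the range of 3 libraries. The mean points of the hair matrix and shaft, dermal papilla, adipocyte and melanocyte lists lie left of 0 under empty and right of 0 under loaded needles, and those of interfollicular epidermis on the opposite sides.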

How the data were processed

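Raw, unnormalized counts per gene were deposited as 1 table with a column for each of the 9 libraries, per the file headers. Per the labels' protocols, a miRNeasy kit (Qiagen) served for RNA extraction and an xGen Broad-Range kit (IDT) for the libraries. HISAT2, featureCounts and the mm39 build are named in the submitters' processing notes, without versions; annotation and strand setting are not stated there. The deposited gene length is the whole gene span for 99.9% of genes, so intronic reads count too.

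A filterByExpr filter (at least 10 counts, total at least 15) kept 26081 genes for testing. edgeR 4.0.16 (R 4.3.3) fitted all libraries together with TMM scaling and a robust quasi-likelihood test, and p-values were adjusted by Benjamini-Hochberg over the tested genes. Standard errors derive from the F statistic. The steps were tested on simulated counts.

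Values by library are given, per role and comparison, for the 5 members with the smallest p and a mean of at least 0.5 CPM, for Axin2, Ctnnb1 and Porcn, and for some of the 6 other pathway genes per comparison chosen in the same way. Members called in a comparison were named besides, and of these Wnt10a, Wnt3a and Wnt2 were given values by library outside that rule. The members and lists were chosen with earlier results of these data known. Alternatives were 3 scalings, 2 filters, the Wald test of DESeq2 1.42.0, limma-voom (3.58.1), a fit of 2 groups, a replicate block and omission of each library.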

Additional observations from a re-analysis of the deposited data

How the results depend on the processing

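Of the 85 calls of members over the 3 comparisons, 69 held in every alternative setting that tested the gene (18, or fewer for Wnt2b, Wnt7a, Wnt8a, Wnt8b, Wnt9b, Fzd9 and Dkk4, which the stricter filter left out): 23 of 27 for loaded needles against untreated skin, 25 of 33 for loaded against empty needles and 21 of 25 for empty needles against untreated skin. Those that did not hold are named with values in the report. Library-size scaling shifted the median of all genes by 0.13 between loaded needles and untreated skin and gave 29 members higher and 3 lower; the signs of Ctnnb1 (0.04) and Dkk3 (0.13) turned. Upper-quartile scaling gave 19 higher and 11 lower between the needles. Omission of 1 library at a time gave 20 to 23 members higher and 3 to 4 lower for loaded needles against untreated skin, 20 to 24 and 8 to 10 between the needles, and 11 to 14 and 12 to 17 for empty needles. A further 51 values that were not called in either fit changed sign. Some differences without a call in the main fit were called in alternatives. Among them were those of Wnt6, Wnt10a, Wnt10b, Rspo4 and Fzd8 between empty needles and untreated skin, and of Wnt4 and Dkk2 between the needles. Low counts leave wide errors for Wnt2b, Wnt7a, Wnt8a, Wnt8b and Dkk4, and depth limits the precision of their values.

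A fit with the replicate block gave 23 higher and 4 lower, 24 and 9, and 12 and 14 in the same order, with Wnt8a then called lower under empty needles (-0.83, edgeR adjusted p = 0.0490). The numbers gave no sign of a pairing: deviations from the group means of same-numbered libraries had correlations of -0.07 to 0.03 over 9 pairs. Those of differently numbered libraries ran from -0.05 to 0.06. With 3 libraries per group this check cannot exclude a pairing.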

Other observations

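Values of 4 receptors known outside the Frizzled family and of Tcf7 follow, chosen after they were seen. Ror2, a receptor for Wnt5a, stood at 12.4, 14.0 and 15.3 CPM in untreated skin, 13.0, 13.2 and 12.2 under empty needles and 23.4, 22.3 and 20.8 under loaded needles, 1.60-fold above untreated skin (log2 fold change 0.67, SE 0.062, edgeR adjusted p = 7.59e-09) and 1.73-fold above empty needles, while empty needles differed from untreated skin by -0.12 (edgeR adjusted p = 0.147). Ror1, its relative, differed by 0.33 under loaded and -0.25 under empty needles against untreated skin, Ptk7 by 0.34 and -0.09, and Ryk by 0.10 and -0.08. Tcf7, a nuclear partner of beta-catenin, stood at 20.6, 20.5 and 22.4 CPM in untreated skin, 17.8, 18.6 and 16.4 under empty needles and 27.0, 27.4 and 26.5 under loaded needles.

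Wnt genes lie side by side in 4 places: Wnt6 and Wnt10a 6.19 kb apart, Wnt10b and Wnt1 11.7 kb, Wnt3a and Wnt9a 16.2 kb, and Wnt9b and Wnt3 24.3 kb. Wnt10b changed by 0.73 between loaded needles and untreated skin, and Wnt1 had 1 to 7 counts per library. Between loaded needles and untreated skin Wnt3a changed by 0.12 and Wnt9a by -0.06, neither of them called. Between the needles Wnt3a changed by 0.34 and Wnt9a by 0.00 (SE 0.068, edgeR adjusted p = 0.996). Wnt6 and Wnt10a changed by 0.42 and 0.16 between loaded needles and untreated skin. Wnt9b and Wnt3 changed by 0.43 and 0.18 there, with Wnt9b not called. Whether neighbours change together was not tested.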
